A study of Mus musculus with 7 samples.

Results

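The miRNAs of the red cell lineage, miR-451a, miR-144 and miR-486, were followed in small RNA libraries of mouse brain, made from dissected lateral ventricles together with their choroid plexus. The members are the mouse rows with the stem miR-451a, miR-144, miR-486a or miR-486b, either arm, which made 6 of the 1914 mature mouse miRNA rows. Of these 6 rows, 5 had reads and 4 had enough to be tested. The libraries came from 4 TAp73 knockouts and 3 wild types, all adult and of the C57BL/6J strain. TAp73 is a p73 protein that begins with a transactivation domain and acts as a transcription factor, and the series title ties it to multiciliogenesis, the making of cells with many cilia, in brain. The labels give neither the kind of knockout allele nor the exact age, and do not say whether each library came from 1 mouse or whether the vessels were rinsed free of blood.

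Mature red cells of mammals have no nucleus but keep a large store of small RNA. miR-451a and miR-144 are made from one primary transcript that the erythroid factor GATA1 switches on, and miR-451a is known as a very abundant miRNA of red cells. miR-451a is also known for its unusual maturation, in which the slicer Argonaute 2 cuts the hairpin in place of Dicer. miR-486 is made from an intron of Ank1, the gene of the red cell membrane skeleton protein ankyrin 1, and is also abundant in skeletal and heart muscle. Brain tissue holds blood in its vessels, and the choroid plexus is densely supplied with them, so these miRNAs are commonly read as a sign of how much blood a dissected sample kept. In bulk tissue, more red cells and more of the miRNA per red cell cannot be told apart.

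The sequences show how the miR-144 and miR-451a members lie in their shared locus. They come from RefSeq on GRCm38.p6, whose table held 3 of the 5 detected members, and each mature sequence has its seed, bases 2 to 8, in capitals.
mmu-miR-451a: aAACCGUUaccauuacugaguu
mmu-miR-144-3p: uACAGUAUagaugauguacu
mmu-miR-144-5p: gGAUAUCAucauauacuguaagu
The 3 seeds differ from each other, and none of the 1679 named mature miRNAs in that table shared a seed with a member. The hairpins are shown next with the mature arms in capitals, because they place miR-451a at the turn of its hairpin and the miR-144 arms on its stem.
Mir451a hairpin: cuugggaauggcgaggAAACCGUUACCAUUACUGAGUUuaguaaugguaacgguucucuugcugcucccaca
Mir144 hairpin: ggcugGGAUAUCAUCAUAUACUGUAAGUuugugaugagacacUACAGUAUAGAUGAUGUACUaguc
In the structure that RNAfold predicted for the 72-base Mir451a hairpin, the 22-base mature miR-451a reached across the whole terminal loop of 4 bases. In that predicted for the 66-base Mir144 hairpin, 0 bases of either mature arm lay in the terminal loop of 6 bases.

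The submitters name the build mm10, the same assembly as GRCm38. In the GENCODE M21 annotation of that build, Mir144 lies at chr11:78073005-78073070 and Mir451a at chr11:78073170-78073241, both on the plus strand and 99 bases apart. Apart from Mir451b, no other annotated gene overlaps either of them, and the nearest protein-coding gene, Eral1, lies 135 bases away on the minus strand. Mir451b occupies the same bases as Mir451a on the minus strand, and its row had 0 reads in all 7 libraries. Mir486 lies at chr8:23142555-23142682 on the plus strand, and Mir3107, which RefSeq lists as the miR-486b hairpin, lies within it on the minus strand at chr8:23142573-23142662. Both are in an intron of Ank1 (chr8:22974844-23150497, plus strand).

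The libraries held 969106 to 9343921 assigned reads in knockouts and 2238917 to 3692879 in wild types, and log2 depth gave an exact permutation p of 0.57 between the groups (two-sided). Mouse miRNA rows took 98.55% to 98.98% of reads in knockouts and 98.76% to 98.92% in wild types. Knockout replicate 3 was the shallowest library, where 3 reads, the number that a count of 0 allows, correspond to 3.14 counts per 1000000 mouse miRNA reads (CPM). Markers of the labelled tissue were present in every library: choroid plexus miRNAs summed to 2016 to 7435 CPM in knockouts and 2015 to 11789 CPM in wild types, and multiciliated cell miRNAs to 379.0 to 746.2 CPM in knockouts and 1253 to 3578 CPM in wild types. The rows of that last list moved in opposite directions: miR-34b-5p and miR-34c-5p, which carries most of the sum, were called lower in knockouts (log2 fold changes -2.40 each), and miR-449a-5p (2.67) and miR-449c-5p (3.12) were called higher by edgeR. Neuronal miRNAs were also present, at 25404 to 28407 CPM in knockouts and 14111 to 24934 CPM in wild types. The targeted gene cannot be read from small RNA, so the genotype labels were not checked.

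The erythroid miRNAs differed widely in level, and the highest of them was not the one best known from red cells. The row that the files join under the names miR-486a-5p and miR-486b-5p, here called miR-486 5p, ranked 40 among mouse miRNA rows with 4009 ± 469.5 CPM over the 7 libraries (SD, n = 7). miR-451a ranked 190 with 119.5 ± 31.2 CPM, miR-144-3p ranked 259 with 42.3 ± 13.7 CPM, and miR-144-5p ranked 375 with 13.7 ± 3.89 CPM. The other miR-486 arms had almost no reads. miR-486a-3p had 6 reads in all, at most 2 in a library. miR-486b-3p had 0, which allows up to 0.325 CPM in the deepest library and 3.14 CPM in the shallowest. How reads shared by near-identical rows were assigned is not known, so these values cover only the reads given to each row. The members together made 0.376% to 0.522% of mouse miRNA reads in knockouts and 0.386% to 0.420% in wild types, and miR-486 was 94.9% to 96.8% of that sum.

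miR-451a, which stands for the red cell content in common blood measures, did not differ in level between the genotypes beyond the spread of libraries. It stood at 80.9, 123.8, 170.7 and 109.8 CPM in knockout replicates 1 to 4, and at 149.0, 107.2 and 95.1 CPM in wild type replicates 1 to 3. The groups overlapped, with both the lowest and the highest library among the knockouts. In descending order the libraries were knockout 3, wild type 1, knockout 2, knockout 4, wild type 2, wild type 3 and knockout 1. Only the step between wild type 1 (95% exact Clopper-Pearson interval 134.8 to 164.3 CPM) and knockout 2 (116.1 to 131.9 CPM) exceeded the counting intervals of the neighbours. Reads carry no molecular identifiers, so these intervals cover counting error only.

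miR-451a averaged 121.3 ± 37.5 CPM (SD) over the 4 knockouts and 117.1 ± 28.3 CPM (SD) over the 3 wild types. On the log2 scale they differed by 0.03 ± 0.30 (knockout minus wild type ± SE, exact permutation p = 0.97, two-sided, where 35 splits allow no p below 0.029). In edgeR's quasi-likelihood test with TMM scaling the log2 fold change was 0.10 ± 0.25 (SE), with a 95% interval of 0.727-fold to 1.58-fold (adjusted p = 0.87). The sign of this small value rested on single libraries, at -0.09 without knockout replicate 3 and -0.06 without wild type replicate 3.

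**Figure D1:**
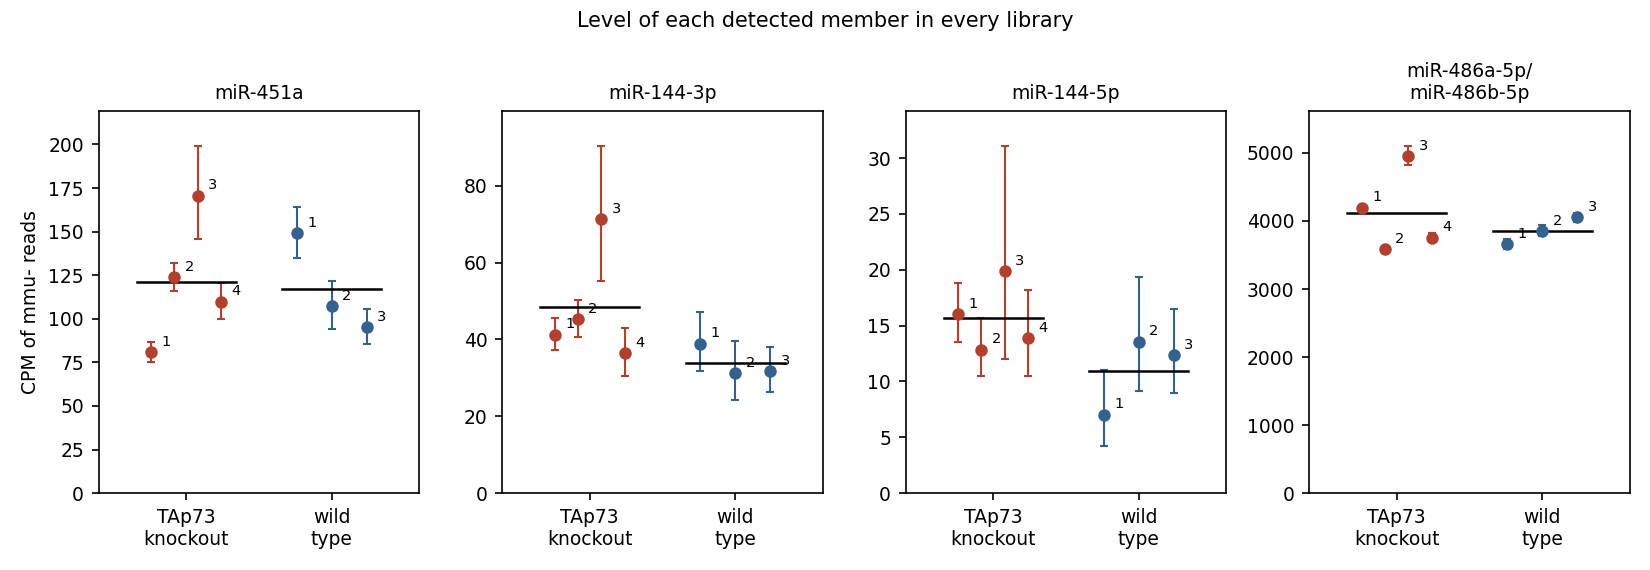
Level of the 4 tested members in CPM of mouse miRNA reads, with 1 point per library, numbered by replicate. Error bars are 95% exact Clopper-Pearson counting intervals and horizontal lines are group means. The groups overlap in each panel, and knockout replicate 3 is the highest library in all 4 panels.

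The arms of miR-144, the cluster partner of miR-451a, known in human red cells to act on the antioxidant factor NRF2, had higher means in knockouts but did not pass the test. miR-144-3p stood at 41.3, 45.2, 71.2 and 36.3 CPM in knockout replicates 1 to 4, and at 38.9, 31.2 and 31.8 CPM in wild type replicates 1 to 3. Of the knockouts, 3 lay above all wild types, while knockout replicate 4 lay below wild type replicate 1. It averaged 48.5 ± 15.6 CPM (SD) over the 4 knockouts and 33.98 ± 4.29 CPM (SD) over the 3 wild types, and the log2 fold change was 0.54 ± 0.24 with a 95% interval of 1.01-fold to 2.08-fold. Its unadjusted edgeR p was 0.043 and its adjusted p was 0.38.

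The other arm, miR-144-5p, was lower in level and rested on fewer reads, 19 in each of knockout replicate 3 and wild type replicate 1. It stood at 16.0, 12.9, 19.9 and 13.9 CPM in knockout replicates 1 to 4, and at 7.04, 13.6 and 12.3 CPM in wild type replicates 1 to 3. Wild type replicate 1 was the lowest library (95% counting interval 4.24 to 10.998 CPM), and wild type replicate 2 lay above knockout replicate 2. The log2 fold change was 0.55 ± 0.27 (edgeR adjusted p = 0.42), and it was 0.30 without wild type replicate 1.

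miR-486 5p, which is abundant in both muscle and red cells, was the steadiest member. It stood at 4196, 3582, 4956 and 3757 CPM in knockout replicates 1 to 4, and at 3665, 3853 and 4056 CPM in wild type replicates 1 to 3. The wild types lay within the range of the knockouts. Its coefficient of variation over the 7 libraries was 11.7%, against 26.1% for miR-451a, 32.4% for miR-144-3p and 28.5% for miR-144-5p. The log2 fold change was 0.17 ± 0.13 with a 95% interval of 0.922-fold to 1.38-fold (edgeR adjusted p = 0.61). Since miR-486 is also a muscle miRNA, muscle miRNAs were read beside it, from a list chosen after the data were seen. The 7 muscle rows were miR-1a, miR-133a, miR-133b, miR-206, miR-208a, miR-208b and miR-499, with miR-133b-3p at 0 reads. They summed to 9.28 to 10.5 CPM in knockouts and 15.2 to 16.7 CPM in wild types, below miR-486 in every library. These sums did not overlap, but they rest on few reads, as 1 read is 1.05 CPM in knockout replicate 3, whose sum was 9.42 CPM. Only 2 of the 7 rows had enough reads to be tested. Of single tested rows 11.8% did not overlap, a share that is no direct background for a sum of mostly untested rows. The difference between the sums was not tested. miR-133a-3p was lower in knockouts (edgeR unadjusted p = 0.024, adjusted p = 0.38), while miR-206-3p had the higher mean there (0.94 against 0.52 CPM). The part of muscle in the miR-486 level was not tested.

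None of the 4 tested members was called between the genotypes. edgeR called 0 of 4, where 6 of the 534 mouse miRNA rows tested (1.12%, with 0.375% called higher in knockouts) were called. DESeq2 also called 0 of 4, where 14 of the 534 rows (2.62%) were called. DESeq2 left 94 of those rows without an adjusted p, none of them a member, so its share among rows that could be called is larger. At an unadjusted edgeR p under 0.05 the members counted 1, miR-144-3p, where 12.9% of all tested rows did so in either direction and 6.18% did so with the higher level in knockouts. The groups overlapped for all 4 members, whereas they did not overlap for 11.8% of the tested rows. All 4 log2 fold changes were positive, with a median of 0.36, while 252 of the 534 tested rows (47.2%) were positive and their median was -0.02. Leaving out wild type replicate 1 gave 3 called rows and leaving out wild type replicate 2 gave 14, and 0 members were among them in either case. With library totals alone the medians were 0.28 for the members and -0.10 for all tested rows.

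**Figure D2:**
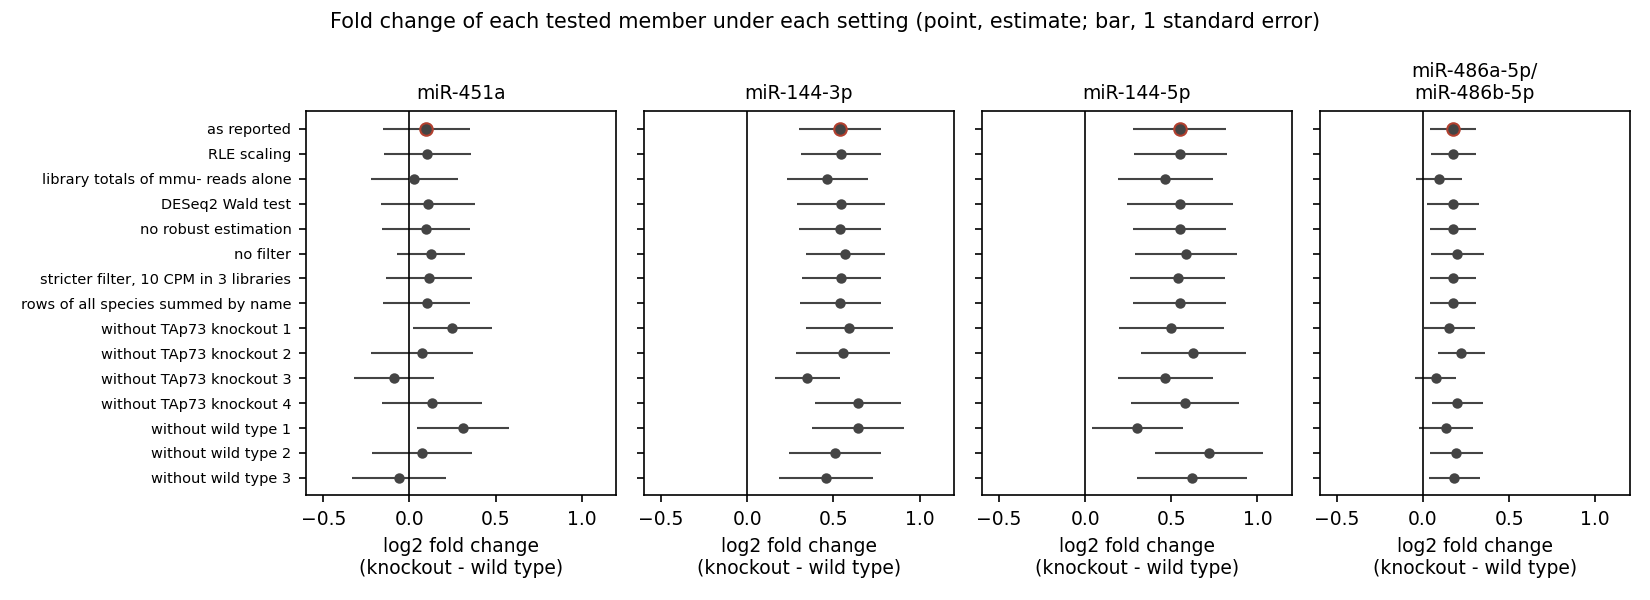
Log2 fold change (knockout minus wild type) of the 4 tested members as reported and under 14 other settings, with bars of 1 standard error. miR-451a crosses 0 when knockout replicate 3 or wild type replicate 3 is left out, and the miR-144 arms and miR-486 stay above 0 in each setting shown.

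One library stood high for every tested member. Knockout replicate 3 had the highest CPM of each of the 4 tested members, where 17.4% of all tested rows were highest in that library. Since miR-451a and both miR-144 arms come from the same primary transcript, the 4 rows are not independent, and no test was made. Relative to the mean of the other libraries it held 1.90 times as much miR-144-3p, 1.58 times as much miR-144-5p, 1.54 times as much miR-451a and 1.29 times as much miR-486 5p. Without it the log2 fold changes were 0.35 for miR-144-3p, 0.47 for miR-144-5p and 0.07 for miR-486 5p. This was also the shallowest library, and leukocyte miRNAs were highest in it for 5 of 7 rows. miR-223-3p was at its lowest among the knockouts there, but at 3.14 CPM, which is 3 reads, so this place is uncertain. It stood apart in the marker lists of the tissue as well. Its summed neuronal miRNAs (28407 CPM) were the highest of the 7 libraries. There miR-124-3p (10028 CPM) was highest, while miR-128-3p and miR-129-5p lay within the range of the other knockouts. Its vessel wall (16262 CPM) and multiciliated cell sums (379.0 CPM) were the lowest. Within the vessel wall list, however, miR-145a-5p (87.95 CPM) was at its highest among the knockouts. Its choroid plexus sum was 2016 CPM, against 4999.7 to 7435 CPM in the other knockouts and 2015 CPM in wild type replicate 2. miR-204-5p carried that sum, whereas the scarce miR-211-5p was highest in knockout replicate 3 (7.33 CPM). The part of depth, of other blood cells and of tissue make-up in its high values was not tested.

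**Figure D3:**
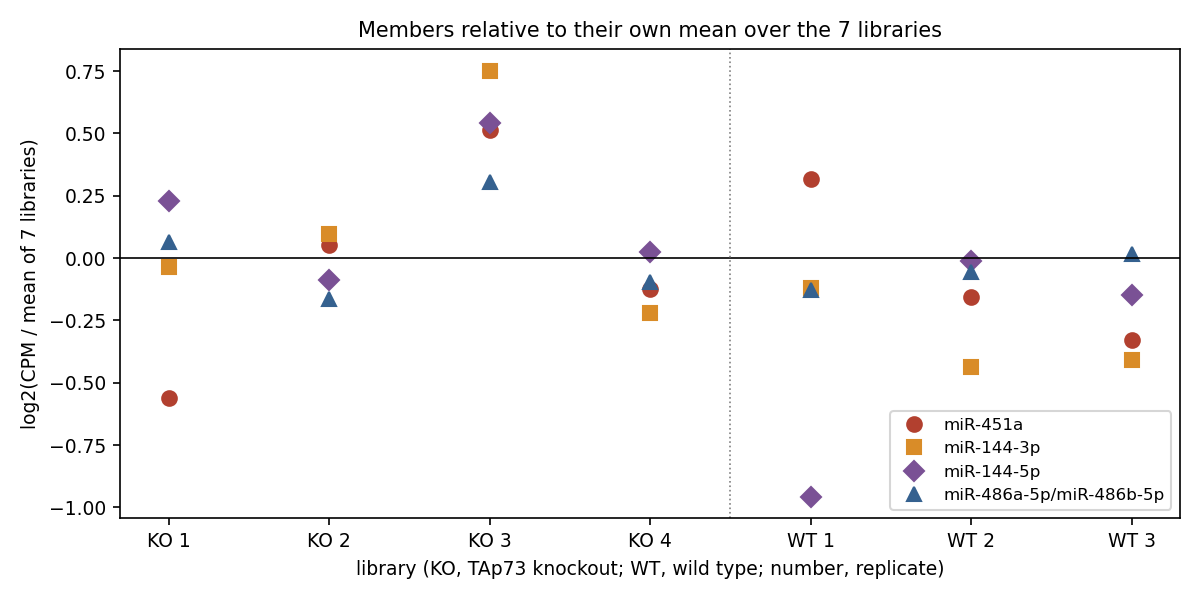
Level of each tested member in each library, as log2 of its CPM over its own mean of the 7 libraries. All 4 members lie above 0 in knockout replicate 3, whereas in wild type replicate 1 miR-451a lies high and miR-144-5p lies low.

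No pair of members passed a test of varying together. Across the 7 libraries 6 pairs were compared on log2 CPM, with the smallest p-values after adjustment still above the threshold (exact permutation over 5040 pairings, smallest adjusted p = 0.24 for Pearson's r and 0.66 for Spearman's rho). For the cluster partners miR-451a and miR-144-3p, Pearson's r was 0.66 (exact permutation p = 0.10) and Spearman's rho was 0.54 (exact permutation p = 0.24). With the most distant libraries for miR-451a left out, knockout 3 and wild type 1, that r was 0.14. Leaving them out also narrows the range of miR-451a, which by itself can lower r, so no conclusion is drawn from the drop. For miR-486 5p and miR-451a, r was 0.24 (exact permutation p = 0.62) and rho was -0.21 (exact permutation p = 0.66). Without knockouts 3 and 1, the most distant for miR-486 5p, r was -0.81, which was not tested.

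Ratios within a library do not depend on library totals, so they were set beside the levels. There were 0.51, 0.37, 0.42 and 0.33 reads of miR-144-3p per read of miR-451a in knockout replicates 1 to 4, and 0.26, 0.29 and 0.33 in wild type replicates 1 to 3. The knockout mean was 0.406 ± 0.0780 (SD, n = 4) and the wild type mean 0.296 ± 0.0367 (SD, n = 3), with knockout 4 just below wild type 3. This ratio of members was not tested. The 3p arm of miR-144 outnumbered the 5p arm 2.30 to 5.53 times, with the highest value in wild type replicate 1. miR-486 5p outnumbered miR-451a 28.9 to 51.9 times in knockouts and 24.6 to 42.6 times in wild types.

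**Figure D4:**
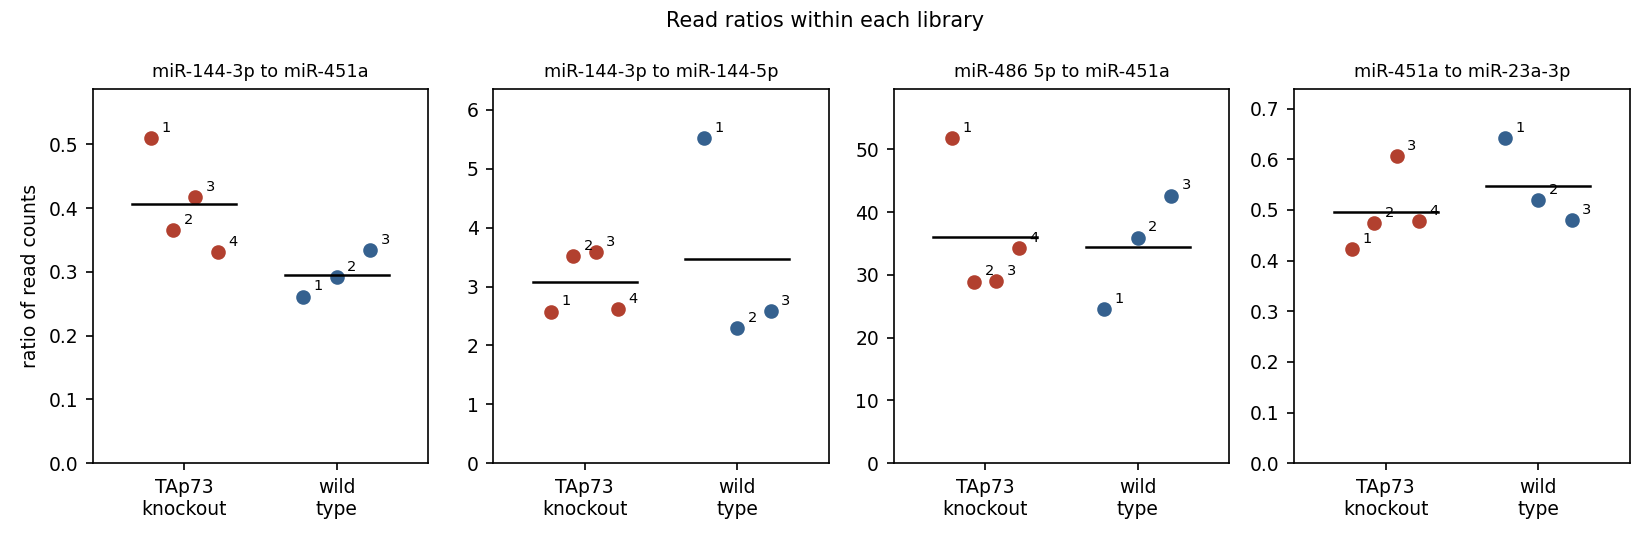
Ratios of read counts within each library, 1 point per library, with group means as lines. For miR-144-3p to miR-451a, knockout replicates 1 to 3 lie above all wild types and knockout 4 lies just below wild type 3, and the groups overlap in the other 3 panels as well.

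The ratio of miR-451a to miR-23a-3p, in common use as a sign of red cell RNA in serum and plasma because miR-23a-3p is scarcely affected by red cell lysis, did not pass a test either. It was 0.42, 0.47, 0.61 and 0.48 in knockout replicates 1 to 4, and 0.64, 0.52 and 0.48 in wild type replicates 1 to 3. Each wild type lay above knockouts 1, 2 and 4, and knockout 3 lay above wild types 2 and 3. The log2 ratio was lower in knockouts by 0.15 with an SE of 0.17 (exact permutation p = 0.37, two-sided). In solid tissue miR-23a-3p comes from many cells, so the ratio sets miR-451a against the tissue and not against plasma.

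The library-to-library pattern of miR-451a was shared most closely by miRNAs that are no members. Likeness was measured as the SD over the 7 libraries of the log2 ratio of reads to miR-451a, over the other 533 tested rows. miR-30b-5p, a broadly expressed miRNA, came first with an SD of 0.084, and counting error alone would give 0.082. It had 9.75, 9.22, 8.19 and 8.76 reads per read of miR-451a in knockout replicates 1 to 4, and 9.37, 9.14 and 9.44 in wild type replicates 1 to 3. Next came miR-350-3p (SD 0.145 against a counting error of 0.272), miR-342-3p (0.161 against 0.085), miR-3084-3p (0.163 against 0.194) and miR-8114 (0.184 against 0.284). Of these 4, only miR-342-3p had an SD above its counting error, so the ranks of the others cannot be told from counting error. The cluster partner miR-144-3p came at rank 78 with an SD of 0.321 against a counting error of 0.155, and miR-486 5p at rank 131 with 0.367 against 0.079. miR-144-5p came at rank 395 with 0.617 against 0.254. The SD of the log2 CPM of miR-451a itself was 0.371, which 133 of the 533 rows undercut. These values describe 7 libraries and the leading rows are the extremes of many, so no test was made.

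**Figure D5:**
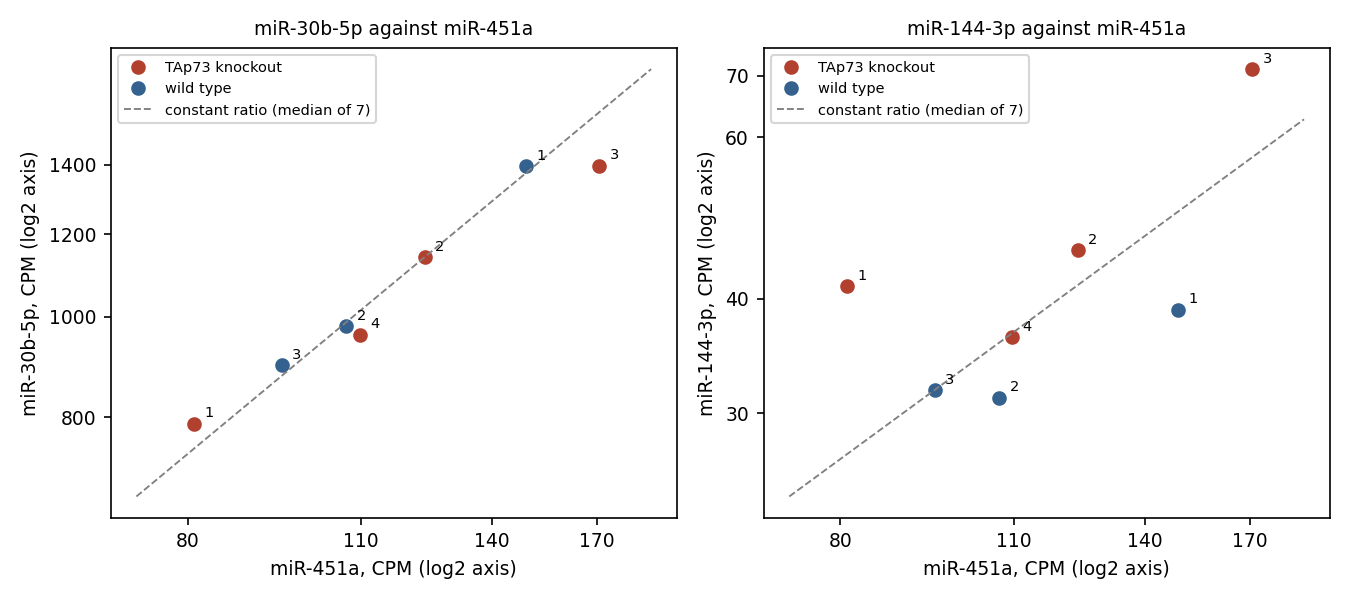
miR-30b-5p (left) and miR-144-3p (right) against miR-451a, in CPM on log2 axes, 1 point per library numbered by replicate. The dashed line marks a constant ratio at the median of the 7 libraries, and miR-30b-5p lies close to it in each library while miR-144-3p scatters around it.

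Lists of other blood and vessel miRNAs were read beside the members. The first list held 13 miRNAs that are also abundant in red cells but made by other cells too, among them miR-182, miR-183 and miR-96 of sensory and epithelial cells. Of these 12 were tested, 6 were positive and 6 negative, and the median log2 fold change was 0.03. By edgeR or DESeq2 0 were called, and 0 had an unadjusted edgeR p under 0.05. Over all tested rows, 47.2% were positive, 1.12% were called by edgeR, 2.62% were called by DESeq2 and 12.9% had an unadjusted edgeR p under 0.05. The smallest p-values on this list belonged to miR-92a-3p (0.28 ± 0.14, edgeR adjusted p = 0.42) and miR-185-5p (-0.26 ± 0.19, edgeR adjusted p = 0.59), both far from the threshold. Summed over this list, the knockouts ranged from 44835 to 50443 CPM, and the wild types from 39557 to 50517 CPM. Knockout replicate 3, highest for the members, had the lowest sum of the knockouts. That sum was mostly miR-22-3p, which averaged 36915 CPM over the 4 knockouts, so it says little about the scarcer rows. Single rows were mixed in that library. Among the knockouts, miR-182-5p, miR-183-5p and miR-96-5p were highest there. By contrast, miR-16-5p, miR-15a-5p, miR-92a-3p, miR-25-3p and miR-363-3p were lowest there. However, miR-96-5p and miR-363-3p each stood at 2.09 CPM there, below the 3.14 CPM that 3 reads make in that library. Their places cannot be told from counting error.

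The tested leukocyte miRNAs had positive log2 fold changes, as the members did, but their summed level was not higher in most knockouts. Of 7 listed, 6 were tested and 6 were positive with a median of 0.30, where 47.2% of all tested rows were positive. By edgeR or DESeq2 0 were called, where 1.12% and 2.62% of all tested rows were. An unadjusted edgeR p under 0.05 was reached by 0, against 12.9% of all tested rows. miR-342-3p was positive (0.03) only after TMM scaling, as its mean CPM was 595.4 in knockouts and 609.1 in wild types. The leukocyte rows summed to 1062, 1152, 1713 and 1100 CPM in knockout replicates 1 to 4. In wild type replicates 1 to 3 they summed to 1344, 1078 and 1086 CPM. Knockout replicate 3 was thus the highest, while the remaining knockouts lay below wild type replicate 1. miR-342-3p was the most abundant row of this sum. None of the listed rows was at 0 over all libraries together, but miR-223-5p had only 3 reads in all. miR-223-3p, abundant in neutrophils, had only 3.14 to 8.504 CPM in knockouts and 2.71 to 4.08 CPM in wild types. miR-150-5p, abundant in mature lymphocytes, averaged 380.3 ± 79.2 CPM (SD) over the 4 knockouts and 314.0 ± 32.4 CPM (SD) over the 3 wild types (edgeR adjusted p = 0.42). Vessel wall miRNAs summed to 16262 to 21213 CPM in knockouts and 16764 to 25318 CPM in wild types, with miR-126a-5p at 0 reads and a median of -0.04 over 3 tested rows. The part of these cells in the members' values was not tested.

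With the miR-451a level of each library as a covariate, edgeR called 8 miRNAs between the genotypes, 3 higher and 5 lower, and 5 of the 6 called without it were among them. miR-34c-5p lost its call (adjusted p = 0.072) with a log2 fold change of -2.41, against -2.40 without the covariate. miR-449c-5p stayed at 3.12 and miR-34b-3p at -2.53. The 3 rows called only with the covariate were let-7f-5p, miR-1298-3p and miR-3547-3p (edgeR adjusted p = 0.047 each), which were named after their values were seen. That fit covered all 534 tested rows, the members included. The members' own values from it are not given, since miR-451a is one of them.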

How the data were processed

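Each deposited table gives raw read counts, not normalized, in 66573 rows, of which 66568 are named. The closing 5 rows, for unassigned reads, hold 0 in every library. Per the labels' protocols, total RNA was extracted with phenol/chloroform and sequenced after Illumina TruSeq small RNA preparation. Of software, the submitters' processing notes list bcl2fastq 2.17.1.14 and DESeq2, and of builds mm10, with no role stated. Not given in the sources used here: aligner and counting tool. Nor is it stated how reads shared by near-identical rows were assigned, so a row at 0 reads need not mean an absent miRNA. In all, 30 rows of other species with the stems miR-451, miR-144 or miR-486 held 0 reads.

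CPM are reads per 1000000 reads of all mmu- rows in a library. Adapter ligation favours some sequences, so levels of different miRNAs compare only roughly. edgeR 4.0.16 (R 4.3.3) was fitted to all mmu- rows with TMM scaling, filterByExpr (minimum count 10, minimum total 15) and robust quasi-likelihood tests, adjusted by Benjamini-Hochberg over all tested rows at 0.05. The code was tested on simulated data. Levels and the ratio to miR-23a-3p (0.5 reads added) were tested by exact permutation. DESeq2 1.42.0 and other alternatives are given at the end. Hairpins were folded with RNAfold of ViennaRNA 2.7.2. Replicates were numbered in accession order. The labels give no batch and do not say that each library is a separate animal, so p-values cover only library-to-library spread, which may be technical. No pair of libraries was identical (chi-square per degree of freedom 46.6 to 271.2). The rule for named rows took all members, miR-451b, miR-23a-3p, the 5 rows most like miR-451a, and list members with the smallest p. Other rows, such as those called with the covariate, miR-93-5p and listed rows at 0, were named after their values were seen. The members and lists were chosen with earlier results of these data known.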

Additional observations from a re-analysis of the deposited data

Results flagged for a closer look

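Of 55 values checked within the knockout group for a library set apart, 3 were so, and about 1 in 20 would be by chance. Knockout replicate 3 held 1713 CPM of summed leukocyte miRNAs, whereas the remaining knockouts held 1062 to 1152 CPM, so the gap to its neighbour took 0.862 of the whole range. In the same library miR-342-3p, one of these leukocyte rows, reached 922.5 CPM, with 442.2 to 509.7 CPM in the remaining knockouts and a gap of 0.859. miR-342-3p made most of the leukocyte sum there, so these flags are largely the same signal. The values checked include sums and rows within them, so they are not independent. For miR-93-5p, on the red cell list, 1 knockout held 400.3 CPM and the remaining knockouts 354.6 to 362.1 CPM, a gap of 0.837. No member was set apart in this way.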

How the results depend on the processing

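The 4 tested members stayed uncalled in each of the 14 alternatives. The log2 fold change without 1 library ran from -0.089 to 0.31 for miR-451a, 0.35 to 0.64 for miR-144-3p, 0.30 to 0.72 for miR-144-5p and 0.07 to 0.22 for miR-486 5p. The lowest adjusted p reached under any alternative was 0.32, for miR-144-5p without wild type replicate 2. miR-451a changed sign without knockout replicate 3 (-0.089) or wild type replicate 3 (-0.060). Its log2 CPM difference ran from -0.16 to 0.21 without 1 library, and it turned negative when knockout 2 (-0.0011), knockout 3 (-0.16), wild type 2 (-0.02) or wild type 3 (-0.11) was left out. Set against all mouse reads in place of miR-23a-3p, the miR-451a ratio changed sign to 0.026. Calls over all rows numbered 14 with DESeq2, 19 with no filter and 3 to 14 without 1 library. The 3 remained without wild type replicate 1 and the 14 came without wild type replicate 2. No paired analysis was possible because the replicate numbers come from accession order and pair no samples. Depth left miR-486a-3p and miR-486b-3p untested and, of the 4 tested members, limits miR-144-5p most, with 19 reads in a library of each genotype.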
